A study of Mus musculus with 27 samples.

Results

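The red cell membrane skeleton is described here through 9 genes, chosen by name for the parts their proteins play in it. The rule uses no measured value, but the choice was made with earlier results of these data known. The genes are Sptb, Ank1, Epb41, Epb42, Slc4a1, Add2, Dmtn, Tmod1 and Tmod3. Of these, 8 had a probe set named for that gene alone, and all 8 were among the 10916 genes tested out of 18193 with such a probe set. Epb41, which encodes protein 4.1, was not analysed here because no probe set was named for it alone in the array annotation used. The 8 genes were read by 25 probe sets of the 45037 on the array, from 1 for Tmod1 to 5 each for Add2 and Tmod3.

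The skeleton of the red cell is a net of spectrin tetramers spread under the plasma membrane. It is held to the membrane by ankyrin, which ties beta spectrin to the anion exchanger band 3, and its nodes are short actin filaments bound by protein 4.1, adducin, dematin and tropomodulin. Erythroblasts build this net as they mature in the fetal liver, and inherited defects in several of its parts give fragile, rounded or elliptical red cells.

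Expression was measured in fetal liver cells of mouse embryos at E14.5, held for 0, 24 or 48 h in a serum-containing medium, on 27 Affymetrix arrays. Cells lacking both Rb1 and p107 (Rb1;p107 DKO, here DKO) had 2 arrays at 0 h, 1 at 24 h and 1 at 48 h. Cells of the Rb1 knockout (Rb1KO) had 5, 4 and 2 arrays at these times, those of the p107 knockout (p107KO) had 2, 2 and 1, and wild-type cells (WT) had 3, 2 and 2. The design crosses loss of these pocket proteins, which bind E2F transcription factors and restrain the cell cycle, with time in culture. All samples were labelled untreated, and the labels name neither a strain, the alleles, nor any promoter or Cre line behind the knockouts. Whether the arrays within a group stem from different embryos or litters is not stated, and the p-values therefore reflect the spread among these samples alone, part of which may be technical.

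Values are MAS5 signals, a measure of probe set brightness on a linear scale, and differences are given as log2(signal + 32) with the standard error of the fit. Where several probe sets read a gene, the brightest stands for it, and no gene's level was set against another's, since probe sets differ in how strongly they bind. A gene passed the test when its adjusted p from limma fell below 0.05. In bulk samples such as these, fewer cells of a type and less RNA per cell cannot be told apart.

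The arrays checked against their labels as follows. Rbl1, the gene of p107, read 70.3 to 167.5 on the DKO and p107KO arrays and 798 to 3502.3 on the others. Rb1 read 1376.9 to 2825.3 in DKO and Rb1KO cells at 0 h, against 6143.8 to 7105.4 in WT cells. At 48 h it read 5993.6 in DKO cells and 4207.2 to 5452.8 in Rb1KO cells, against 5745.6 to 6583.2 in WT cells and 5314.0 in p107KO cells, inside the Rb1KO range. This probe set thus no longer separated cells with and without Rb1 there. The labels do not say where it lies relative to the deletion. Erythroid markers were strong on every array: Alas2 read at least 20117, Klf1 at least 12102.4 and Gata1 at least 4630.2, while the probe set named for Hba-a1 alone read only 5.5 to 124.3. The summed signal of 8 hepatocyte markers was 3074 to 41980 in cultured cells, against 168500 to 237400 at 0 h. Signal from the Y-linked genes Eif2s3y and Kdm5d was present on 4 of 4 DKO, 3 of 11 Rb1KO and 2 of 5 p107KO arrays, and on 0 of 7 WT arrays. At 0 h and 24 h, 4 arrays were set apart after the values were seen, namely Rb1KO 0 h replicate 5 and replicate 1 of DKO, Rb1KO and p107KO at 24 h, with the lowest median correlations to the arrays of their time (0.954 at 0 h, against 0.969 to 0.980 for the rest, and 0.937 to 0.952 at 24 h, against 0.956 to 0.961). The gap at 24 h was small, and arrays of 48 h, at 0.943 to 0.955, were as low.

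RefSeq promoter windows for assembly GRCm38.p6 were available for 5 of the 9 genes. Those of the 3 measured genes that changed in a comparison below are printed, because these genes differed by genotype or time. The stretches are the 250 bases before the start that the promoter window uses, on the gene's own strand. CACCC or its reverse GGGTG is in capitals. This is the core of the element bound by the erythroid factor Klf1. Sptb begins on the minus strand of chromosome 12, its stretch is chr12:76710548-76710797, and its match lies at bases -95 to -91 from the start. Tmod1 lies on the plus strand of chromosome 4 and its stretch is chr4:46038972-46039221, with matches at -141 to -137 and -87 to -83. The Tmod1 gene is listed from base 46038940, so its whole stretch lies inside the listed gene, unlike those of Sptb and Add2. Add2 lies on the plus strand of chromosome 6 and its stretch is chr6:86028431-86028680, with a match at -131 to -127.
Sptb: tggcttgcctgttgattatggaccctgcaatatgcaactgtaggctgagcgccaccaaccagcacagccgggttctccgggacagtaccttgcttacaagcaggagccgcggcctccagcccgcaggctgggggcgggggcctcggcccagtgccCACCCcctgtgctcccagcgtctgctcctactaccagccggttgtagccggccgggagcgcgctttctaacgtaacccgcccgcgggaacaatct
Tmod1: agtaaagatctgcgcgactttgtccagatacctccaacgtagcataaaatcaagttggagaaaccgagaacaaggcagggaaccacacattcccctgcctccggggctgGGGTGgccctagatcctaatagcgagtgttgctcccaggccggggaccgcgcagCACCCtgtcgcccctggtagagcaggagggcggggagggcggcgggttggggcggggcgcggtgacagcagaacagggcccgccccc
Add2: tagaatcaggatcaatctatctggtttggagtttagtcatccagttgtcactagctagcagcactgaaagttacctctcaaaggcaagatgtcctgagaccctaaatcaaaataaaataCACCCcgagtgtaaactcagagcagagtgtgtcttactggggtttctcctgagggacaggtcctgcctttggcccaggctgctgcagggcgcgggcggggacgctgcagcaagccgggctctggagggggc

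Searched on both strands over windows of 250 bases before and 50 after the start, CACCC was present in 3 of the 7 windows of these genes, and in 57.5% of all 32851 windows in the table. Sptb and Add2 each held 1 match and Tmod1 held 3, the third at bases 7 to 11 after the start and so outside the printed stretch. The GATA factor motif AGATAA or TGATAA was found in 1 window, that of Epb42, against 18.6% of all windows. The E2F motif TTTCGCGC or TTTGGCGC was found in 0 windows, against 0.813% of all. The E-box CANNTG, which can overlap other motifs, was found in 5 windows, against 72.3% of all. These are matches of letters only.

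Sptb, which encodes the beta spectrin of red cells, was higher in Rb1KO than in WT cells after 24 h and 48 h of culture, and its difference at 0 h did not pass the test. The gene lies at chr12:76580488-76710547 (GRCm38.p6, as for all positions here). Averaged over the 3 culture times, Sptb was 1.76-fold higher in Rb1KO than in WT cells. The difference was 0.82 ± 0.13 on the log2 scale (adjusted p = 0.000123), and it held in all 18 fits that left out an array, with a range of 0.72 to 0.92. It was the only member of the 8 to pass, whereas 18.9% of all genes tested passed in this comparison, and 10.3% were higher, so the count does not set the membrane skeleton apart from other genes. The median difference of the 8 genes was 0.10, against -0.07 over all genes tested.

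At 0 h, Sptb read 4629.6, 7047.3, 6234.1, 7489.2 and 4709.8 in Rb1KO cells, against 5527.3, 5723.5 and 6086.9 in WT cells. The WT arrays lay inside the range of the Rb1KO arrays, and the difference was 0.03 ± 0.19 (adjusted p = 0.991). At this time 0 of the 8 genes passed in limma, where 0.614% of all genes did. Of the 8, 1, Tmod1, had an unadjusted p below 0.05.

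After 24 h of culture Sptb read 7805.3, 6791.8, 10339.6 and 6673.7 in Rb1KO cells, against 4882.4 and 3470.3 in WT cells. Every Rb1KO array was above both WT arrays, and the difference was 0.91 ± 0.23 (adjusted p = 0.0159), where 7.63% of all genes passed and 4.15% were higher. This call rested on few arrays: without WT 24 h replicate 2 the difference was 0.67 and the adjusted p 0.263, and with only the groups compared it was 0.0584, within a range of 0.00396 to 0.263 over all alternatives. After 48 h Sptb read 4218.6 and 6371.7 in Rb1KO cells, against 1616.8 and 2020.2 in WT cells. The groups again did not overlap, and Sptb was 2.84-fold higher in Rb1KO cells (1.5 ± 0.27, adjusted p = 0.000473), where 10.4% of all genes passed and 7.46% were higher. Without the arrays that carried Y-linked signal, which left Rb1KO 48 h with 1 array, the difference was 1.21 with an adjusted p of 0.0566.

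**Figure D1:**
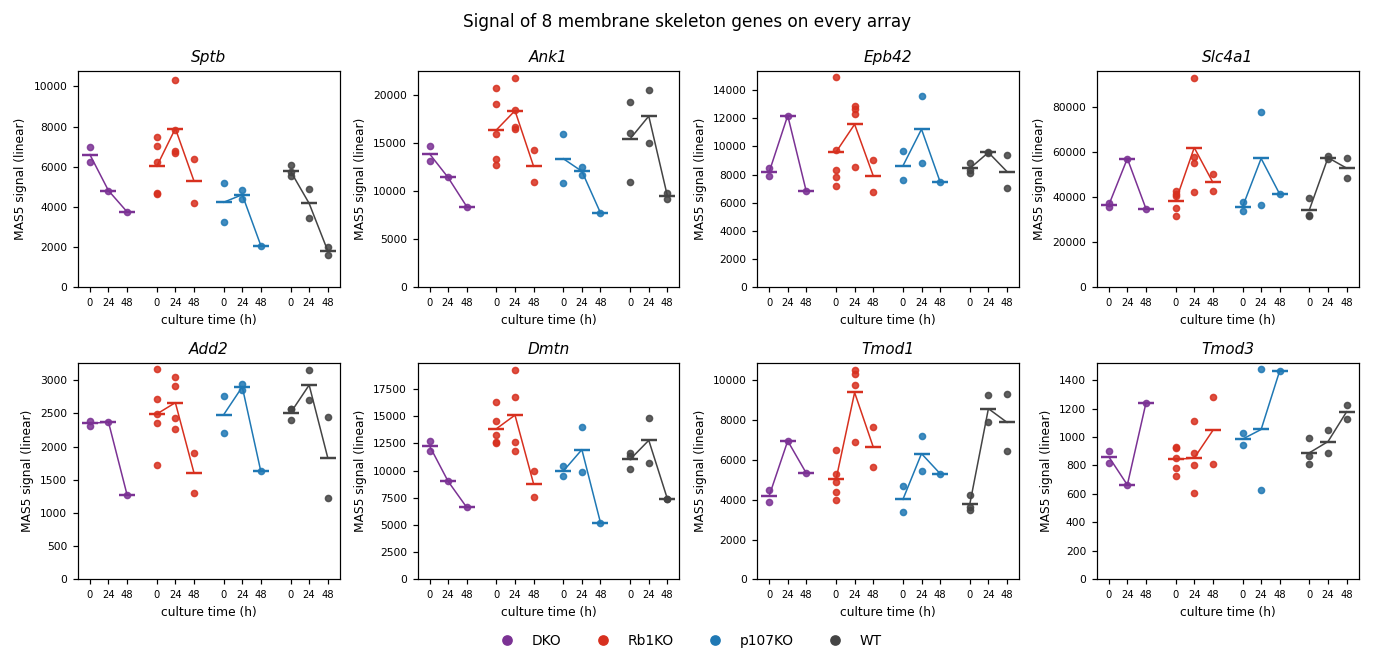
MAS5 signal (linear axis from 0) of each of the 8 measured genes on all 27 arrays, against culture time in hours within each genotype. Points are arrays, bars are group means and lines join the means of a genotype. Sptb fell to 1616.8 and 2020.2 in WT cells at 48 h while the Rb1KO arrays stayed at 4218.6 and above.

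The difference between Rb1KO and WT cells in Sptb was itself larger at 48 h than at 0 h. Between 48 h and 0 h it grew by 1.47 ± 0.33 (adjusted p = 0.0114), and 1 of the 8 genes passed this test of the difference, against 3.48% of all genes, with 2.66% higher. The call was lost without WT 48 h replicate 1 (adjusted p = 0.0676), without Rb1KO 48 h replicate 2 (0.149), without the arrays carrying Y-linked signal (0.252), and with the mean over probe sets (0.0827), and the estimate in the fits that left out 1 array ran from 1.18 to 1.77. From 0 h to 24 h the difference grew by 0.88 ± 0.30 (adjusted p = 0.202), and from 24 h to 48 h by 0.59 ± 0.35 (adjusted p = 0.817). In these 2 steps 0 of the 8 genes passed in limma, where 0.824% and 0.0458% of all genes did. Of the 8, 1 and 0 had an unadjusted p below 0.05.

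The course of Sptb in culture is given for each genotype. Over the first 24 h it gave -0.485 ± 0.24 in WT cells (adjusted p = 0.123). This passed with quantile normalization (adjusted p = 0.0394) and with only the groups compared (0.022). Rb1KO cells gave 0.40 ± 0.18 over that step (adjusted p = 0.0685). It passed there with the mean over probe sets (1.22, adjusted p = 4.125e-06) and without replicate 2 (0.0484) or 4 (0.0339) of Rb1KO 0 h. In WT cells Sptb fell by 1.17 ± 0.27 on the log2 scale between 24 h and 48 h (adjusted p = 0.00266), to 0.44 of its 24 h level, a call lost with the mean over probe sets (adjusted p = 0.068). In Rb1KO cells the same step gave -0.58 ± 0.23 (adjusted p = 0.0756). It passed there with the mean over probe sets (-0.67, adjusted p = 0.033), and was -0.88 without Rb1KO 48 h replicate 2. The Rb1KO and WT changes over this step did not differ past the threshold (0.59 ± 0.35, adjusted p = 0.817). p107KO cells read 3263.5 and 5205.0 at 0 h, 4838.9 and 4379.6 at 24 h and 2078.8 at 48 h, and the last value lay just above the WT arrays of that time. DKO cells read 6217.0 and 6992.3 at 0 h, 4812.4 at 24 h and 3758.4 at 48 h. The DKO array lay between the 2 WT arrays at 24 h and above both at 48 h.

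Averaged over time, Sptb was 0.49 ± 0.17 higher in DKO than in WT cells with an adjusted p of 0.0683, which missed the threshold; it passed with array weights (0.0256), only the groups compared (0.00871), the mean over probe sets (0.0442), the replicate block (0.0241) and without WT 24 h replicate 1 (0.0492). Against Rb1KO cells the DKO cells gave -0.33 ± 0.16 (adjusted p = 0.343). In the order of the 12 group means, Rb1KO at 24 h was highest, followed by DKO at 0 h, Rb1KO at 0 h and WT at 0 h. WT at 48 h was lowest, next to p107KO at 48 h, and the range between highest and lowest was 4.25-fold. From the highest group down to DKO at 48 h, the arrays of each group overlapped those of the next in the order. The arrays of WT and p107KO at 48 h lay below all of these.

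Marker levels also differed between these genotypes. Summed signal of 7 stem and progenitor markers was 6156 to 6948 in Rb1KO cells at 48 h, against 13490 to 20170 in WT cells. It was also lower without overlap at 24 h (3766 to 6101 in Rb1KO cells, against 8292 to 10060 in WT cells) and at 0 h (2738 to 3822 in Rb1KO cells, against 4109 to 5610 in WT cells), where Sptb did not pass. Such sums are carried most by their brightest probe sets. At 48 h the stem and progenitor markers had a median difference of -0.235, and 1 of the 6 tested was lower. So were 3 of 8 hepatocyte markers, with a median of -1.4. At that time 0 of 9 megakaryocyte markers passed in limma. Of all genes, 10.4% passed at 48 h in either direction and 7.46% were higher. Averaged over time, 6 of these 9 were lower in Rb1KO than in WT cells (median -0.52), where 8.57% of all genes were lower. In that average 2 of the 6 stem and progenitor and 1 of the 8 hepatocyte markers were lower. Of 7 erythroid markers tested, 1 was higher and 1 lower. The hepatocyte sum at 48 h was 4754 to 16960 in Rb1KO cells, against 10770 to 41980 in WT cells. The sum of 9 megakaryocyte and platelet markers was 46820 to 64550 in Rb1KO cells, against 71360 to 75450 in WT cells. The 8 erythroid markers summed to 133900 to 134800 in Rb1KO cells and 130800 to 145300 in WT cells at this time, and in the Rb1KO cells 1 of the 8 had a mean under 32. At 24 h the erythroid sum was 138000 to 230100 in Rb1KO cells and 175600 to 188200 in WT cells. The erythroid ranges overlapped at both times, and at 48 h 1 of the 7 erythroid markers tested was higher, where 7.46% of all genes were. The part of erythroid or other cell types in the Sptb result was not tested.

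**Figure D2:**
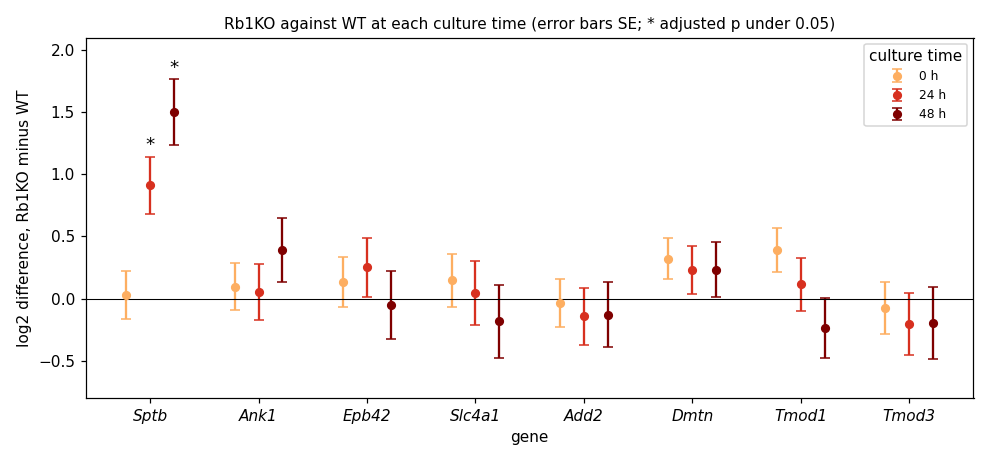
Difference in log2(signal + 32) between Rb1KO and WT cells for each gene at 0, 24 and 48 h of culture, with bars of 1 standard error and a star where the adjusted p from limma was below 0.05. Sptb alone carries stars, at 24 h (0.91) and 48 h (1.5).

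A second, dimmer probe set for Sptb (1455226_at) gave a different picture over time. It read 365.8, 592.3, 564.5 and 831.5 in Rb1KO cells at 24 h, against 236.1 and 219.8 in WT cells, with no overlap. This difference passed (1.20 ± 0.36, adjusted p = 0.0445 among 19313 probe sets), but that at 48 h did not (0.56 ± 0.41, adjusted p = 0.479). Over the first 24 h this probe set rose in Rb1KO cells by 2.05 ± 0.28 (adjusted p = 2.69e-06), and it was higher in cultured than fresh DKO cells by 2.14 ± 0.41 (adjusted p = 0.000451). The brighter probe set gave 0.40 and -0.63 for those steps and passed in neither. The probe sets were alike in the direction of Rb1KO against WT in culture, and unlike in the course over culture, and between 24 h and 48 h in WT cells the dimmer one gave -0.13 ± 0.41 (adjusted p = 0.867), where the brighter one fell.

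**Figure D3:**
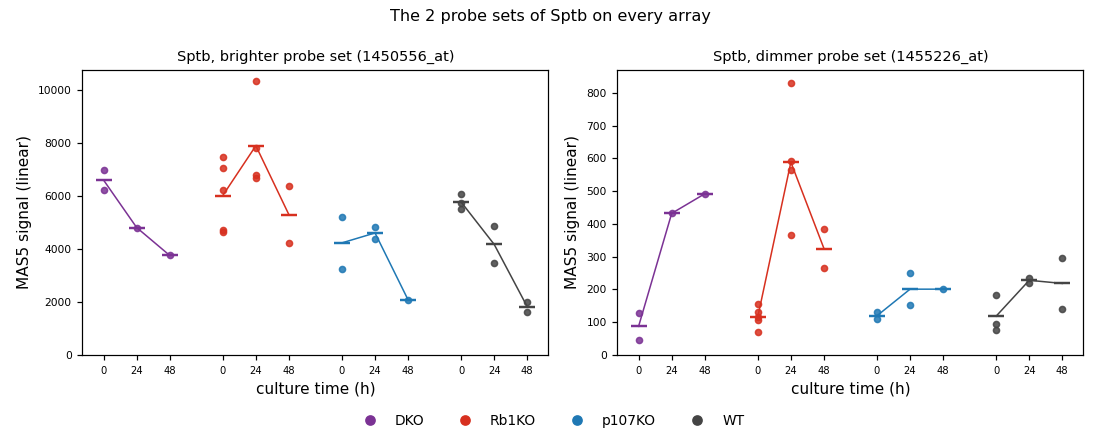
MAS5 signal (linear axes from 0, with different scales) of the brighter and the dimmer Sptb probe set on every array, by genotype and culture time in hours. Points are arrays and bars are group means; the brighter set falls with time in WT cells, while the dimmer set is higher in cultured cells, most in Rb1KO (up to 831.5) and DKO (up to 492.0).

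The ankyrin complex, which links spectrin to the membrane, gave no genotype difference that passed the test with its brightest probe sets. Ank1 (chr8:22974836-23150501), encoding the red cell ankyrin, differed by 0.18 ± 0.13 between Rb1KO and WT cells (adjusted p = 0.353), with a 95% interval for the difference from -0.09 to 0.45. Slc4a1 (chr11:102348820-102365281), encoding band 3, differed by 0.00 ± 0.15 (adjusted p = 0.990). Epb42 (chr2:121017891-121036877), encoding a protein of this anchor that binds band 3 and ankyrin, differed by 0.11 ± 0.14 (adjusted p = 0.612).

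Ank1 changed with time in WT cells. It read 9166.0 and 9845.3 in WT cells at 48 h, against 20542.3 and 15043.3 at 24 h, so that both later arrays were below both earlier ones. It fell by 0.89 ± 0.26 (adjusted p = 0.0148). In Rb1KO cells the 48 h arrays read 10932.4 and 14231.7, against 16503.1 to 21801.4 at 24 h, without overlap, and the difference of -0.55 ± 0.22 had an adjusted p of 0.0875. The 3 dimmer Ank1 probe sets gave differences of -0.18, -0.03 and -0.22 in WT cells for this step, none of which passed. The call was lost without WT 24 h replicate 1 (adjusted p = 0.156) and without WT 48 h replicate 1 (0.0849), and with the mean over probe sets (0.264), within a range of 0.00987 to 0.264.

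Slc4a1 rose over the first 24 h. Rb1KO cells read 92966.5, 42099.9, 57785.2 and 54957.5 at 24 h, against 40527.0, 42922.8, 41207.5, 31421.5 and 34979.4 at 0 h. The lowest 24 h array lay below the highest 0 h array, and the rise was 0.65 ± 0.20 (adjusted p = 0.00941). WT cells read 56801.9 and 58219.3 at 24 h, against 31462.1, 32176.0 and 39781.9 at 0 h, with no overlap and a rise of 0.75 ± 0.27 (adjusted p = 0.0332). The highest value of Rb1KO cells came from replicate 1, which was set apart; without the 4 such arrays the Rb1KO difference was 0.40 (adjusted p = 0.0145).

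The rise of Slc4a1 depended on how arrays were scaled. After quantile normalization the WT difference was -0.05 (adjusted p = 0.718), and the call was also lost in Rb1KO cells (adjusted p = 0.816). This scaling moved the median of all genes in that WT step to 0.03, against -0.08 as deposited. Slc4a1 lay near the top of these arrays. The brightest probe set read 41050.4 to 48146.8 on the WT arrays at 0 h, and 66918.9 and 76435.1 at 24 h. Quantile normalization gives every array the same set of values, so it could hardly keep a rise so near the top. In WT cells the call was also lost without replicate 1 (0.0923) or 2 (0.0853) of 0 h and without replicate 1 (0.115) or 2 (0.138) of 24 h, and in Rb1KO cells without replicate 1 of 24 h (0.0542). With no filter (0.0593) and with the mean over probe sets (0.864) the WT call was lost too. The second-brightest Slc4a1 probe set gave 0.69 ± 0.20 in Rb1KO cells (adjusted p = 0.00765) and 0.60 ± 0.27 in WT cells (adjusted p = 0.0971), while the dimmest gave 1.78 ± 0.74 and -1.05 ± 1.01 and passed in neither.

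Epb42 passed in no comparison with its brighter probe set outside the alternatives named next. That probe set ran from 6781.2 to 14954.7 over all arrays. In Rb1KO cells at 24 h against 0 h it gave 0.30 ± 0.18 (adjusted p = 0.180), and passed with the replicate block (0.47, adjusted p = 0.0217), array weights (0.0465), without Rb1KO 0 h replicate 5 (0.0152) and without the 4 arrays apart (0.0207). At 48 h against 24 h it gave -0.54 ± 0.24 (adjusted p = 0.112) in Rb1KO cells, and passed without Rb1KO 24 h replicate 2 (0.0471) and without the 4 arrays apart (0.0416). Its dimmer probe set (1417338_at) passed for the DKO cells. It read 2966.8 and 3939.9 in DKO cells at 0 h, 1092.4 at 24 h and 2194.5 at 48 h, against 3458.7 to 4055.7, 2991.8 to 3556.9 and 2335.2 to 3514.7 in WT cells at those times. The cultured DKO arrays lay below every WT array of their time, and the DKO cells were lower than WT by 0.69 ± 0.15 averaged over time (adjusted p = 0.00316). They were lower than Rb1KO cells by 0.85 ± 0.14 (adjusted p = 0.00964). The brighter probe set gave 0.02 and -0.10 for the same comparisons. The 24 h DKO array, which carries the lowest value, was 1 of the 4 set apart, and with the brighter probe set it read 12188.1, above the DKO arrays at 0 h (7868.0 and 8478.5). This comparison was not computed for the dimmer probe set without that array.

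Of the 4 measured genes of the actin junction, Tmod1, Dmtn and Add2 each changed over a culture step and Tmod3 passed in no comparison. Tmod1 (chr4:46038940-46116032) encodes the tropomodulin that caps the slow-growing ends of red cell actin filaments, and it rose over the first 24 h. Rb1KO cells read 10527.6, 6930.0, 10343.9 and 9775.3 at 24 h, against 4008.7 to 6481.6 at 0 h with a median of 4898.6. WT cells read 9251.6 and 7910.3 at 24 h, against 4250.0, 3623.7 and 3486.2 at 0 h. In both genotypes every 24 h array was above every 0 h array.

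The rise of Tmod1 was 1.86-fold in Rb1KO cells (0.90 ± 0.16, adjusted p = 9.14e-05) and 2.26-fold in WT cells (1.17 ± 0.22, adjusted p = 0.000244). It passed under all 20 alternatives in Rb1KO cells and all 16 in WT cells, with adjusted p at most 0.000694 and 0.00877. In p107KO cells Tmod1 read 7204.0 and 5436.7 at 24 h, against 4676.3 and 3366.4 at 0 h, and the difference of 0.65 ± 0.25 just missed the threshold (adjusted p = 0.0502). In DKO cells the cultured arrays read 6959.6 and 5337.2, against 3872.9 and 4511.1 at 0 h, a difference of 0.54 ± 0.25 (adjusted p = 0.0977). The rise did not differ between Rb1KO and WT cells beyond its error (-0.28 ± 0.28, 95% interval -0.85 to 0.30, adjusted p = 0.783).

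Over this step 2 of the 8 genes, Slc4a1 and Tmod1, passed in each of Rb1KO and WT cells with their brightest probe sets, both higher. Among all genes 51% passed in Rb1KO cells and 36.9% in WT cells, and 20.4% and 15% were higher. The share of members that were higher was near the share of all genes that were higher, and is no result about the membrane skeleton. In each of these genotypes 0 of the 8 were lower, where 30.6% of all genes were in Rb1KO cells and 21.9% in WT cells. In p107KO cells 0 of the 8 passed in limma, where 28.1% of all genes did, and 1 of the 8 had an unadjusted p below 0.05. The erythroid marker sum was 138000 to 230100 in Rb1KO cells at 24 h, against 100700 to 118100 at 0 h, and 175600 to 188200 against 92620 to 109200 in WT cells. Signals of hepatocyte, endothelial and stroma markers were much lower in cultured cells, and their part in the rises was not tested.

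Dmtn (chr14:70602184-70636048) encodes dematin, which bundles actin, and Add2 (chr6:86028681-86124409) encodes beta adducin, which caps actin filaments and recruits spectrin to them. Both were lower at 48 h than at 24 h. Dmtn read 7616.1 and 9954.8 in Rb1KO cells at 48 h, against 11787.4 to 19203.1 at 24 h. In WT cells it read 7403.9 and 7416.4 at 48 h, against 14839.5 and 10721.6 at 24 h. No array overlapped between the times in either genotype. Dmtn fell by 0.76 ± 0.19 in Rb1KO cells (adjusted p = 0.00639) and by 0.76 ± 0.22 in WT cells (adjusted p = 0.014).

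The fall of Dmtn was seen with all 3 of its probe sets, the other 2 of which fell by 1.402 and 0.87 in Rb1KO cells and fell by 1.57 and 0.68 in WT cells, each past the threshold. In DKO cells Dmtn read 9013.8 and 6624.8 after culture, against 11785.4 and 12762.8 at 0 h, and fell by 0.66 ± 0.22 (adjusted p = 0.0246), again with all 3 probe sets past the threshold. Leaving out single arrays lost several of these calls: without Rb1KO 48 h replicate 1 the adjusted p was 0.181 (0.0633 with only the groups compared), and without WT 24 h replicate 1 it was 0.176. The WT call was also lost without replicate 1 (0.0656) or 2 (0.0607) of 48 h. The DKO call was lost without the 48 h array (0.247) and without replicate 1 (0.0713) or 2 (0.131) of 0 h.

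Add2 read 1307.5 and 1903.9 in Rb1KO cells at 48 h, against 2423.4, 2912.5, 3046.1 and 2263.0 at 24 h. In WT cells it read 1219.6 and 2445.2 at 48 h, against 3146.7 and 2705.8 at 24 h. The times did not overlap in Rb1KO or WT cells, although the higher WT array at 48 h lay close to the lower one at 24 h. Add2 fell by 0.73 ± 0.23 in Rb1KO cells (adjusted p = 0.0256) and by 0.74 ± 0.26 in WT cells (adjusted p = 0.0425). The WT call was lost without WT 48 h replicate 1, where the difference was -0.25 and the adjusted p 0.578, and without replicate 1 (0.195) or 2 (0.0936) of WT 24 h. It was lost as well with no filter (0.0605), quantile normalization (0.0619), only the groups compared (0.107) and without Y-linked arrays (0.0788). The Rb1KO call was lost without Y-linked arrays (0.0736), without Rb1KO 48 h replicate 1 (adjusted p = 0.391) and without replicate 2 (0.0537) or 3 (0.0653) of 24 h. All 5 Add2 probe sets passed in Rb1KO cells, with differences from -0.73 to -1.09. In WT cells 1 of the 5 passed in the fit of probe sets (-1.26 ± 0.27, adjusted p = 0.00203). Over the first 24 h in Rb1KO cells the brightest Add2 probe set gave 0.11 ± 0.18 (adjusted p = 0.623). Dimmer ones rose past the threshold: 1431076_at (0.47, adjusted p = 0.0346), 1421975_a_at (0.52, 0.0395) and 1451914_a_at (0.67, 0.0224). Probe set 1450442_at read 681.7 to 965.9 at 0 h and 669.6 to 964.9 at 24 h.

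In Rb1KO cells 2 of the 8 genes passed between 24 h and 48 h, Add2 and Dmtn, and 6 had an unadjusted p below 0.05. In WT cells 4 passed, with Sptb and Ank1 besides these, and all were lower. Among all genes 21% and 25.2% passed, and 7.57% and 12% were lower. The median difference of the 8 genes was -0.54 in Rb1KO cells and -0.49 in WT cells, against 0.02 and 0.03 over all genes tested. Over the same step the summed signal of megakaryocyte markers was 46820 to 64550 in Rb1KO cells at 48 h, against 12230 to 19340 at 24 h, and 71360 to 75450 against 16170 to 26550 in WT cells. Neutrophil markers likewise summed to 266300 to 360400 in Rb1KO cells at 48 h, against 103500 to 302000 at 24 h, and to 323900 to 324100 against 165300 to 218100 in WT cells. Erythroid markers were lower too. Their sum was 133900 to 134800 in Rb1KO cells at 48 h, against 138000 to 230100 at 24 h, and 130800 to 145300 against 175600 to 188200 in WT cells. Of the 7 erythroid markers tested 4 were lower in Rb1KO and 3 in WT cells, with medians of -0.51 and -0.60, close to those of the 8 genes. The part of these markers in the falls was not tested.

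**Figure D4:**
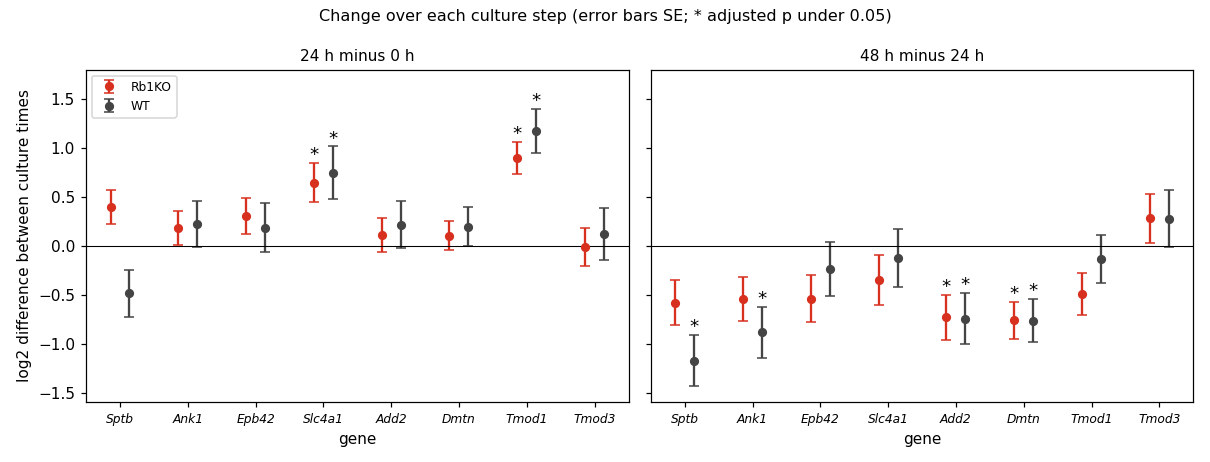
Difference in log2(signal + 32) over each culture step for the 8 genes in Rb1KO and WT cells, with bars of 1 standard error and a star where the adjusted p from limma was below 0.05. Slc4a1 and Tmod1 pass in the first step, both higher at 24 h, and Add2 and Dmtn pass in the second in both genotypes, lower at 48 h, with Sptb and Ank1 added in WT cells.

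Tmod3 (chr9:75497784-75559657) encodes the tropomodulin found in most nucleated cells, including erythroblasts, where Tmod1 marks later red cells. It passed in no comparison and ran from 604.7 to 1477.6 over all arrays. The 2 arrays of p107KO cells at 24 h read 628.5 and 1477.6, nearly its whole range. Its difference between 48 h and 24 h was 0.28 ± 0.25 in Rb1KO cells (adjusted p = 0.474) and 0.28 ± 0.29 in WT cells (adjusted p = 0.527).

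Loss of p107 alone was not accompanied by a change in any of the 8 genes that passed the test. Averaged over time 0 of the 8 passed in limma, where 0.0183% of all genes did. Of the 8, 1, Ank1, had an unadjusted p below 0.05 (-0.34 ± 0.16, adjusted p = 0.745). In DKO against WT cells 0 passed with the brightest probe sets, where 13.3% of all genes did, and 1 of the 8 had an unadjusted p below 0.05. A dimmer Add2 probe set (1451914_a_at) passed there (-0.79, adjusted p = 0.024), where the brightest gave -0.27 ± 0.17 (adjusted p = 0.366). In DKO against Rb1KO cells 0 passed, where 0.999% of all genes did, and 3 of the 8 had an unadjusted p below 0.05. Of those 3, Ank1 gave -0.49 ± 0.16 (adjusted p = 0.133) and Dmtn -0.42 ± 0.14 (adjusted p = 0.123). In DKO against p107KO cells 0 passed, where 7% of all genes did, and 1 of the 8 had an unadjusted p below 0.05. That gene was Sptb (0.53 ± 0.19, adjusted p = 0.102), which passed with array weights (adjusted p = 0.0463) and gave 0.64 without p107KO 0 h replicate 2. The dimmer Epb42 probe set passed in this comparison as well (-0.56, adjusted p = 0.0426). For cultured against fresh DKO cells 1 passed, Dmtn, against 32.1% of all genes, with 18.2% lower. DKO cells had 1 array each at 24 h and 48 h, whose spread is borrowed from other groups in the fit.

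Across the 12 group means the genes fell into patterns that are given as descriptions, since the means share arrays scaled together. Ank1 and Dmtn followed each other most closely (Pearson r = 0.946), followed by Slc4a1 and Tmod1 (0.924) and by Add2 and Dmtn (0.824). Sptb correlated with Dmtn at 0.799 and with Ank1 at 0.766, but with Slc4a1 at -0.053. Tmod3 ran against most others, with r from -0.668 with Add2 to -0.756 with Epb42.

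Outside the set, the genes whose group means were most like those of a member, by Pearson r over the 12 means, were named by rule. For Sptb they were Wrnip1 (0.963), Mpp2 (0.960) and Hace1 (0.957). For Ank1 they were Dmtn itself, Nipa1 (0.930) and Ftsj1 (0.929), and for Dmtn they were Ftsj1 (0.958), Popdc2 (0.956) and Slc7a5 (0.952). Slc4a1 was matched by Prdx2 (0.982), Krtap5-1 (0.977) and Rplp0 (0.974), and Tmod1 by Smap1 (0.969), Cd47 (0.961) and Cln8 (0.955). Add2 was matched by Apeh (0.978), Noct (0.972) and Pdia2 (0.971), Epb42 by Psmd5 (0.932), Adam10 (0.928) and Mt1 (0.928), and Tmod3 by AI429214 (0.959), Rfx7 (0.944) and Madd (0.944).

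**Figure D5:**
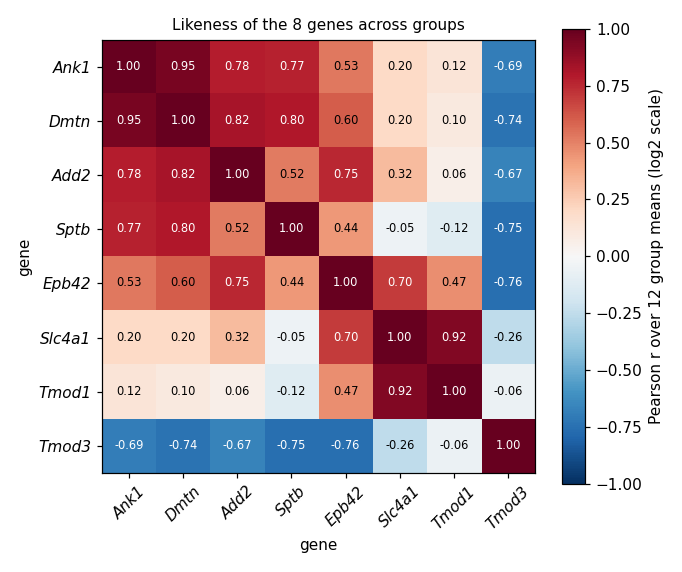
Pearson r between each pair of the 8 genes over the 12 group means of log2(signal + 32), as colour and number. Ank1, Dmtn, Add2 and Sptb form a block of positive values (0.516 to 0.946), Slc4a1 and Tmod1 pair at 0.924, and Tmod3 is negative against all.

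Other genes of the red cell membrane were read from a list of 25, of which 22 were tested. In Rb1KO against WT cells averaged over time 2 were higher and 5 lower, where 10.3% and 8.57% of all genes were, with a median of 0.06 against -0.07 over all genes. Icam4, the LW blood group antigen, was 2.05-fold higher (1.04 ± 0.13, adjusted p = 4.22e-06) and Rhd 1.52-fold higher (0.60 ± 0.12, adjusted p = 0.000654). Xk, the partner of the Kell protein, was 1.75-fold lower (-0.81 ± 0.14, adjusted p = 0.000158), and Mpp1, which encodes the membrane protein p55, was 1.31-fold lower (-0.39 ± 0.09, adjusted p = 0.00419).

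The excess of Icam4 in Rb1KO over WT cells grew between 0 h and 48 h by 2.09 ± 0.32 (adjusted p = 0.000443), and it was the only one of the 22 to pass that test.  Over the first 24 h, 9 of the 22 were higher and 6 lower in Rb1KO cells, and 6 higher and 6 lower in WT cells. Over all genes 20.4% were higher and 30.6% lower in Rb1KO cells, and 15% and 21.9% in WT cells, so that the share of the list that was lower is near the background. Gypc, glycophorin C, was higher by 0.84 ± 0.11 in Rb1KO cells (adjusted p = 1.34e-06) and by 0.73 ± 0.15 in WT cells (adjusted p = 0.000545). Aqp1, the water channel of red cells and of endothelium, fell by 2.85 ± 0.23 in Rb1KO cells (adjusted p = 9.32e-10) and fell by 4.14 ± 0.31 in WT cells (adjusted p = 8.12e-10), along with the endothelial marker sum, which was 311.2 to 618.2 in Rb1KO cells at 24 h, against 3732 to 5431 at 0 h.

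Paralogues of the members used in other cells moved the other way from Slc4a1 and Tmod1 in that step. Of 20 listed, 11 were tested, and 6 of these were lower in each of Rb1KO and WT cells and 0 higher, with medians of -0.66 and -0.95, where 30.6% and 21.9% of all genes were lower. Sptbn1, a beta spectrin of other cells, fell by 1.94 ± 0.14 in Rb1KO cells (adjusted p = 1.60e-10) and by 1.68 ± 0.19 in WT cells (adjusted p = 4.00e-07). Sptan1, the alpha spectrin of other cells, fell by 1.70 ± 0.15 in Rb1KO cells (adjusted p = 2.22e-09) and by 1.16 ± 0.20 in WT cells (adjusted p = 7.27e-05). Both rose again between 24 h and 48 h, Sptbn1 by 1.56 ± 0.18 in Rb1KO cells (adjusted p = 5.13e-06) and by 1.43 ± 0.21 in WT cells (adjusted p = 5.97e-05), over the step in which Sptb fell in WT cells. Stroma markers summed to 493.2 to 631.2 in Rb1KO cells at 24 h, against 8586 to 13370 at 0 h, and to 406.1 to 693.1 against 8122 to 12380 in WT cells, and the part of such cells in the paralogues' change was not tested.

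Genes of actin turnover and filament capping, 18 of 18 tested, gave 1 higher and 3 lower in Rb1KO against WT cells, which is near the share of all genes (18.9%) and no result about the list. Dstn, which encodes the actin-severing protein destrin, was 1.77-fold lower (-0.82 ± 0.12, adjusted p = 3.15e-05), while Diaph3, a formin that builds actin filaments, was 1.36-fold higher (0.44 ± 0.11, adjusted p = 0.0055). Dstn rose by 2.26 ± 0.22 over the first 24 h in WT cells (adjusted p = 2.99e-08), and the difference between Rb1KO and WT changed over that step by -1.42 ± 0.27 (adjusted p = 0.00853). Between 24 h and 48 h 9 of the 18 were higher in Rb1KO cells and 11 in WT cells, where 13.4% and 13.2% of all genes were higher, over the step in which Dmtn and Add2 fell.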

How the data were processed

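The authors deposited linear MAS5 signals, an intensity per probe set, computed in GCOS 1.4, per the submitters' processing notes, from biotin-labelled RNA on Affymetrix mouse arrays (labels). Array medians ran from 81.0 to 119.3. Arrays have no read depth, and their number limits the precision.

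Of 45037 probe sets, 34945 carried 1 gene symbol, 932 several and 9160 none in the annotation used; only the first were used, and 34741 were matched to GRCm38.p6 by Entrez identifier. A gene was represented by its probe set with the highest mean log2(signal + 32), and the dimmest 40% of genes by this mean were dropped, which left 10916. Group means for the 12 groups over 27 arrays were estimated by limma 3.58.1 under R version 4.3.3 (eBayes with trend, 15 residual degrees of freedom), two-sided, with Benjamini-Hochberg adjustment over the 10916 genes of a comparison. Averages over time weighted the 3 times equally. All probe sets of the members were also fitted in a table of 19313 probe sets. The steps were tested on simulated data. Figures used matplotlib 3.10.9 in Python 3.11.15.

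The members, lists and naming rule were chosen with earlier results of these data known. Up to 4 genes per list with the smallest adjusted p, and the 3 genes most like each member, are named. Alternatives were pseudocounts of 1 and 100, a brightness filter at 60% or none, quantile scaling, averaging a gene's probe sets, array weights, a fit of the compared groups alone, a replicate-number block, and omission of each array, the 4 arrays apart or those with Y-linked signal (above 100 for both genes).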

Additional observations from a re-analysis of the deposited data

Results flagged for a closer look

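Epb42 in Rb1KO cells at 24 h had 1 array far below the others. Replicate 2 read 8514.8, against 12283.9, 12833.6 and 12632.4 on the other arrays, and on the log2(signal + 32) scale its gap to the nearest was 0.893 of the group's range, where 0.829 is the limit for 4 arrays. This was 1 of 16 groups of members checked, and chance gives about 1 in 20 such groups.

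The difference between Rb1KO and WT cells in Sptb changed between 0 h and 48 h by 1.472 on the log2 scale (adjusted p = 0.0114 from limma). Sptb was higher by 1.5 in Rb1KO than WT cells at 48 h and by 0.03 at 0 h.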

How the results depend on the processing

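Of 136 pairs of a member and a comparison, 15 passed the threshold; over the alternatives, 2927 values were computed, of which 50 lost a call, 50 gained a call and 7 turned direction, 2 of these from a call as reported and 5 where only the alternative passed. A further 274 changed sign while passing in neither. The rise of Tmod1 in Rb1KO and WT cells and the excess of Sptb in Rb1KO cells averaged over time passed under every alternative listed above. The dimmer Sptb probe set, fitted apart, is not counted there, and its difference at 48 h did not pass.

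Counts of members that passed moved as follows; the cause was not tested. With a pseudocount of 100, a filter at 60% or the replicate number as a block, p107KO at 24 h against 0 h gave 1 (Tmod1), against 0. With no filter or with the mean over probe sets, WT at 24 h against 0 h gave 1, against 2. With quantile normalization, Rb1KO against WT gave 2 (with Dmtn), Rb1KO at 24 h against 0 h gave 1 and cultured against fresh DKO gave 3. With the mean over probe sets, DKO against WT gave 1, DKO against Rb1KO gave 1 (Epb42), WT at 48 h against 24 h gave 2, cultured against fresh DKO gave 3 and the change of the Rb1KO-WT difference to 48 h gave 0. With array weights, DKO against WT, against Rb1KO and against p107KO each gave 1, and cultured against fresh DKO gave 5. With only the groups compared, Rb1KO against WT at 24 h gave 0, DKO against WT gave 1, Rb1KO at 48 h against 24 h gave 1 and cultured against fresh DKO gave 6. With 2 alternatives chosen after seeing the data, cultured against fresh DKO gave 2 without the 4 arrays apart, and without Y-linked signal both Rb1KO against WT at 48 h and the change of that difference from 0 h gave 0.

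The replicate number as a block gave 1 for DKO against WT (Sptb, 0.57, adjusted p = 0.0241) and left the other counts not named above within 1.5 times, with Epb42 added in Rb1KO at 24 h against 0 h (3, against 2). The numbers do not pair the samples: deviations of same-numbered arrays correlated at -0.17 to 0.42 (median 0.02, 76 pairs), those of different numbers at -0.42 to 0.30 (median -0.02, 175 pairs).

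Values that turned were Slc4a1 in WT at 24 h against 0 h (-0.048 with quantile normalization, -1.05 with its dimmest probe set), Sptb in cultured against fresh DKO (0.75 with the mean over probe sets, 2.14 with the dimmer one), and Epb42 in that comparison (-0.48 and -1.12) and in DKO against WT (-0.69 with the dimmer one).

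Leaving out 1 array at a time gave 1 to 1 members for Rb1KO against WT averaged over time, 0 to 0 at 0 h, 0 to 1 at 24 h and 1 to 1 at 48 h. It gave 0 to 0 for p107KO against WT, 0 to 1 for DKO against WT, 0 to 0 for DKO against Rb1KO and 0 to 1 for DKO against p107KO. For 24 h against 0 h it gave 1 to 2 in WT, 1 to 3 in Rb1KO and 0 to 2 in p107KO, and for 48 h against 24 h 1 to 3 in WT and 0 to 3 in Rb1KO. Cultured against fresh DKO gave 0 to 1, and the changes of the Rb1KO-WT difference gave 0 to 0 to 24 h, 0 to 0 from 24 h to 48 h and 0 to 1 from 0 h to 48 h.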
